A study of Arabidopsis thaliana with 12 samples.

Results

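The SAUR (SMALL AUXIN UP RNA) genes are a large plant family of short genes. Many of their transcripts, but not all, appear within minutes of auxin treatment and are short-lived. The 45 SAUR loci described here were taken by a list of locus identifiers, which was drawn up with earlier results of these data known. All 45 were found among the 34262 features of the count tables. They were read in 6-day-old Arabidopsis thaliana seedlings grown on MS medium, of wild type Col-0 (here WT) or a mutant called pot1b, whose allele the labels do not give. The gene POT1B and the telomerase-associated POT1A arose from a duplication. Seedlings of both genotypes received 20 µM Zeocin, which like bleomycin cuts DNA, for 6 h, or a mock treatment. Each of the 4 groups, mock or Zeocin in either genotype, held 3 libraries of whole-seedling total RNA, made with a stranded kit after depletion of ribosomal RNA. Nothing says that replicates came from separate cultures, so the spread that the p-values rest on is that between these samples and may be technical.

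SAUR proteins of the SAUR19 type bind and inhibit PP2C.D phosphatases, which otherwise remove the activating phosphate of plasma membrane proton pumps (AHA). Active pumps acidify the cell wall, and the cell expands. In seedlings SAUR transcripts are best known from the elongating hypocotyl, where the transcription factors PIF, BZR1 and ARF bind near many of them, although single SAURs have other roles, in leaf senescence, cotyledon opening or root growth.

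Of the 45 loci, 31 lie in tandem arrays, runs of neighbouring SAUR genes, and 14 stand alone. Both terms refer to the 45 listed loci, and a gene that stands alone here may have a SAUR neighbour outside the list. The arrays are named here by the start of their locus identifiers: AT5G18 with SAUR19 to SAUR24 (AT5G18010 to AT5G18080), AT1G29 with SAUR61 to SAUR66 and SAUR68, AT4G34 with SAUR1 to SAUR5 and SAUR50, AT3G03 with SAUR26 to SAUR29, AT4G38 with SAUR14 to SAUR16, AT2G21 with SAUR6, SAUR7 and SAUR12, and the AT1G75 pair with SAUR51 and SAUR52. Because a read that fits several copies cannot be given to 1 of them, the coding sequences were compared first. In the AT5G18 array, which spans chr5:5962773-5984308 (RefSeq TAIR10.1), identity between pairs of coding sequences was 87.7% to 95.2%. It was 77.7% to 86.3% in the AT3G03 array and 61.0% to 89.3% in the AT1G29 array. The first 150 aligned coding bases of the AT5G18 genes are shown because they carry the letters by which their reads can be told apart. Capitals mark bases that differ from the commonest base of the alignment column (where bases tie, the later letter of the alphabet was taken as the commonest, so a capital there marks a difference between genes and not a rarer base). All lines run 5′ to 3′ on the coding strand, and SAUR21 lacks 6 of these bases.
SAUR19: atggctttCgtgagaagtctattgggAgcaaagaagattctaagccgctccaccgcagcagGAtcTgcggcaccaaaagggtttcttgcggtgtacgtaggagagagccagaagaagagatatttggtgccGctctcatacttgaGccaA
SAUR20: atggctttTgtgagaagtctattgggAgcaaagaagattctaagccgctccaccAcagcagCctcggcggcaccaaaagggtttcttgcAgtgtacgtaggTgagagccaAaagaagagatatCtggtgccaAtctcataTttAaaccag
SAUR21: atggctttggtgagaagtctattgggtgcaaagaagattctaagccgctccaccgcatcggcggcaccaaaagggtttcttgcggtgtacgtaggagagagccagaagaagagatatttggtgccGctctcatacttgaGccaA
SAUR22: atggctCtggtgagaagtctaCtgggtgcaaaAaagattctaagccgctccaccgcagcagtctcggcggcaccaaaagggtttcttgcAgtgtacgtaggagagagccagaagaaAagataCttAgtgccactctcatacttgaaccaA
SAUR23: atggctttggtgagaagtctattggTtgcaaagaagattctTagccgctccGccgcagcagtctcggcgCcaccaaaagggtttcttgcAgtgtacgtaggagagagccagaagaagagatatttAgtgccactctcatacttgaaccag
SAUR24: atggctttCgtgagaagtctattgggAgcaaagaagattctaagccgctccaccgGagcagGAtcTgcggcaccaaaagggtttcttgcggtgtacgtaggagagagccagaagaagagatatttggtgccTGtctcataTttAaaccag

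SAUR22 (AT5G18050), on the minus strand at chr5:5974341-5975087, and SAUR23 (AT5G18060), on the plus strand at chr5:5975780-5976589, lie head to head within this array. Of all 50-base windows in the exons of SAUR22, 99.4% occur once in the genome, and of those of SAUR23 97.4%. The share was 81.5% for SAUR19, 76.8% for SAUR62, 72.9% for SAUR63 and 66.1% for SAUR68, whose values are therefore uncertain. How the authors treated reads that fit several places is not given in the sources used here. Values of 6 members that overlap another gene (SAUR6, SAUR7, SAUR8, SAUR61, SAUR63 and SAUR64) are also uncertain. SAUR63 and AT1G29435 on the opposite strand had 211 and 215 counts in all, were equal in 8 of 12 libraries and never differed by more than 1 count, so the counts do not separate them.

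Upstream sequence was searched on both strands for letters known from auxin and growth control, in the 300 bases before each annotated gene start. CACATG, an E-box to which PIF factors bind, was found before 25 of the 45 genes (55.6%), 22 of 31 in arrays and 3 of 14 that stand alone. Of the windows of 18336 tested coding genes, 12.7% held it. The windows of SAUR27 and SAUR28 overlap, as do those of SAUR14 and SAUR15, and in each pair 1 CACATG site was counted for both genes. The member counts are therefore not counts of separate sites. TGTCTC, the classical auxin response element, was found before 7 members (15.6%), all in arrays, against 12.8% of all windows. TGTCGG, a variant with higher ARF affinity, stood before 2 members (4.4%, against 5.4%), and the G-box CACGTG before 1, SAUR59 (2.2%, against 8.0%). Matches of each motif were counted separately, also where letters of 2 motifs could overlap. Such a match is a description of letters and not of binding. The 160 bases before the gene start are shown for SAUR22, SAUR66, SAUR1 and SAUR29, which fell in pot1b under mock treatment. They are also shown for SAUR59, which rose. SAUR6, which rose too, is not shown and held CACATG 241 and 79 bases before its start. SAUR3 and SAUR5, which were not called, held CACATG at 70 and 69 bases. Capitals mark matches to these motifs on either strand (GAGACA and CATGTG are TGTCTC and CACATG read on the other strand), and positions are on TAIR10.1.
SAUR22 (chr5:5975088-5975247, minus strand): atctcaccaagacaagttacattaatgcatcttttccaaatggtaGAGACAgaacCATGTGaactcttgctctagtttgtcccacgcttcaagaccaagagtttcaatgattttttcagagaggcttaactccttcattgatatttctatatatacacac
SAUR66 (chr1:10320851-10321010, plus strand): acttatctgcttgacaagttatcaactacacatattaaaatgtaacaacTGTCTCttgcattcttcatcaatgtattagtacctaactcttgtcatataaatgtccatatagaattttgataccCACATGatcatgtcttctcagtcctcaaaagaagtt
SAUR1 (chr4:16591019-16591178, plus strand): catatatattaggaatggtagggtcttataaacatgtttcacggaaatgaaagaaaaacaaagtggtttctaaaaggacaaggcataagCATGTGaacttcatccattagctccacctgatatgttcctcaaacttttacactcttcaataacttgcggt
SAUR29 (chr3:977475-977634, minus strand): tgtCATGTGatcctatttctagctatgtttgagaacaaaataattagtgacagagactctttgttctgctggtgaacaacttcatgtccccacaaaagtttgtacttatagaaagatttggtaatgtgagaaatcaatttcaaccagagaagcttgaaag
SAUR59 (chr3:22434704-22434863, plus strand): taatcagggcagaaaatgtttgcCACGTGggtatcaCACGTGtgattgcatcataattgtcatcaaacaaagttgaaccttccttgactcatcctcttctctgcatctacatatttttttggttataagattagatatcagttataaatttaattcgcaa

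In SAUR22 the TGTCTC letters begin 115 bases and the CACATG letters 105 bases before the gene start. SAUR66 held TGTCTC at 170 and 111 bases and CACATG at 36 bases, and SAUR59 held CACGTG at 137 and 124 bases. No match to these motifs lies in the 300 bases before SAUR23 and SAUR50, both of which also fell in pot1b.

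The 45 SAUR loci together had 1147 to 3116 counts in a library, of totals of 9607269 to 24587168. Chloroplast genes held 53.01% to 58.45% of the totals. Levels are given as CPM, counts scaled to a common library size with TMM factors. In a library 3 counts, the level used as a floor, correspond to 0.122 to 0.3123 CPM. POT1B itself (AT5G06310) was at 2.95 to 5.35 CPM in the 6 WT libraries and at 0.7 to 4.21 CPM in the 6 pot1b libraries. It was not called in pot1b against WT (edgeR adjusted p = 0.363 under mock and 0.34 under Zeocin). In pot1b replicate 3, at 2.82 CPM under mock and 4.21 CPM under Zeocin, it lay near the WT level, and counts without both libraries, an alternative chosen after seeing the data, are given beside the results. WT Zeocin replicate 1 had the lowest mean correlation with its group (0.9733, against 0.9789 to 0.9874 in the others).

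The SAUR loci differed widely in level. Per kilobase of exon, SAUR59 had the highest mean over the 12 libraries (18.0 CPM per kb), followed by SAUR36 (12.5), SAUR32 (12) and SAUR78 (11.3), all of which stand alone. The highest members of the arrays were SAUR14 (6.97 CPM per kb), SAUR1 (3.95), SAUR66 (2.7), SAUR20 (2.62), SAUR6 (1.75), SAUR26 (1.13) and SAUR51 (0.937). SAUR36, also known as SAG201, promotes leaf senescence, SAUR32 is known from apical hook and abscisic acid responses, and SAUR78 from ethylene receptor binding. SAUR59, SAUR36, SAUR78, SAUR32 and SAUR55 together held 59% of the summed CPM of the 45 loci, so that the sum mainly follows these 5.

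**Figure D1:**
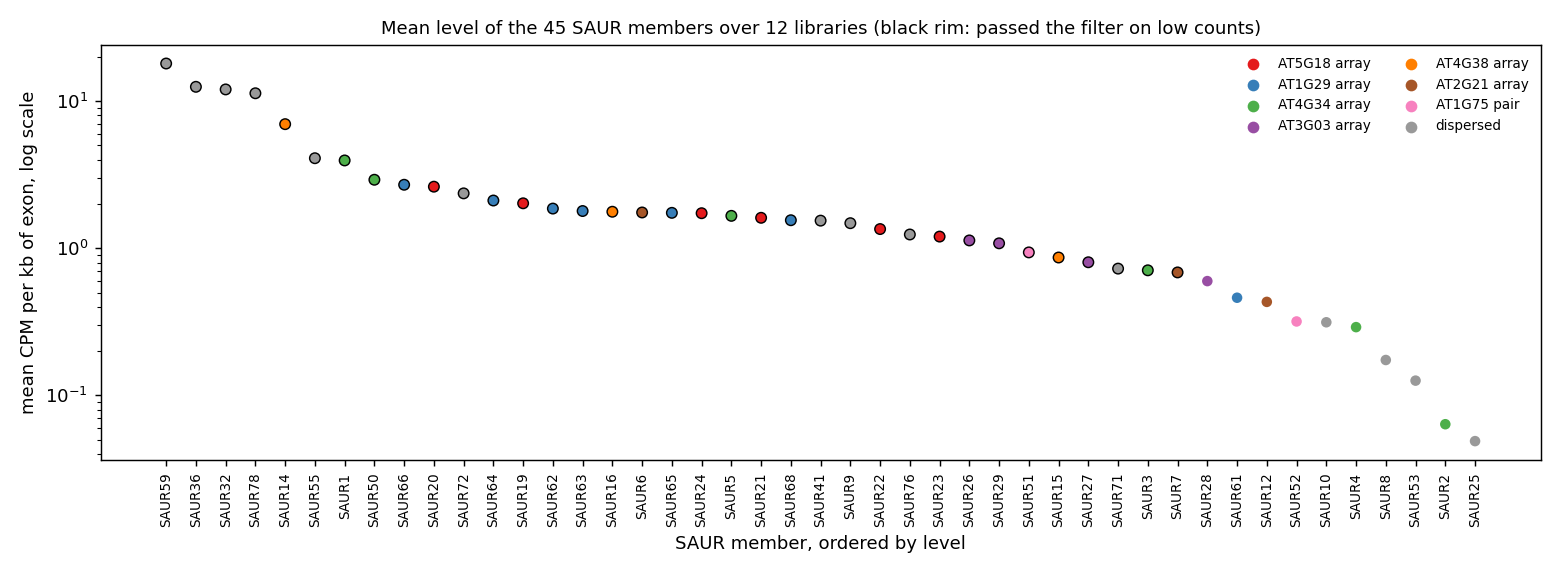
Mean CPM per kilobase of exon over the 12 libraries (log scale) for each of the 45 SAUR loci, ordered by level and coloured by array, with a black rim where the locus passed the filter on low counts. Levels run from 18.0 for SAUR59 to 0.0489 for SAUR25, and the 10 loci without a rim lie at the low end.

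A gene was tested when it passed edgeR's filter for low counts, about 0.683 CPM in enough libraries, which 35 of the 45 loci did. The other 10 were SAUR2, SAUR4, SAUR8, SAUR10, SAUR12, SAUR25, SAUR28, SAUR52, SAUR53 and SAUR61. SAUR2, the second lowest per kilobase, had 5 counts in all 12 libraries together. Of the 35, SAUR7, SAUR22, SAUR26, SAUR27, SAUR29 and SAUR71 had no pot1b mock library at that level and passed through other groups, so that members low in pot1b mock entered the test because they were higher elsewhere. A gene is called changed at an adjusted p under 0.05, from edgeR's quasi-likelihood test with Benjamini-Hochberg adjustment over all 19596 tested genes, and log2 fold changes carry their standard error (SE).

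The first comparison set pot1b against WT under mock treatment and asks how these transcripts differ between the genotypes without Zeocin. Other differences between the pot1b and WT plants cannot be told apart from the mutation here. SAUR22, SAUR23, SAUR29, SAUR1, SAUR50, SAUR64 and SAUR66 fell, with log2 differences of -0.74 to -1.83, and SAUR59 and SAUR6 rose by 0.48 and 0.60. All 7 that fell belong to arrays, but only 10 of the 35 tested members stand alone. Over all tested genes 13.1% were called in this comparison, 7.25% higher and 5.83% lower, beside 2 and 7 of the 35 members. Whether the family exceeds these shares was not tested. Its members were chosen with earlier results of these data known, and SAUR22 and SAUR29 passed the filter only through other groups. By group means, 30 of all 45 loci were lower in pot1b mock, 26 of 31 in arrays and 4 of 14 that stand alone, where 46.2% of all features with a count were lower. In bulk seedlings fewer cells that express a gene and less RNA per cell cannot be told apart.

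SAUR19 to SAUR24 promote cell expansion in hypocotyl and leaf, and SAUR22 had the largest difference of the family. It was at 1.66, 1.37 and 1.47 CPM in WT mock and at 0.493, 0.39 and 0.361 CPM in pot1b mock (42, 13 and 31 counts against 10, 5 and 5). The pot1b libraries all lay below the WT libraries, at less than 1 in 3 of the mean WT level. The log2 difference was -1.83 (SE 0.31, adjusted p = 0.000209). SAUR23, its head-to-head neighbour, was at 1.47, 0.842 and 1.81 CPM in WT mock and at 0.493, 0.781 and 0.361 CPM in pot1b mock. The groups did not overlap, although WT replicate 2 and pot1b replicate 2 lay close together. The difference was -1.44 (SE 0.34, adjusted p = 0.00567). The other members of the array had negative values and were not called: SAUR19 at -0.86 (adjusted p = 0.0507), SAUR24 at -0.82 (adjusted p = 0.0685), SAUR21 at -0.60 and SAUR20 at -0.27. Summed over the 6 genes, the array was at 7.9 CPM or more in every WT mock library and at 4.7, 5.1 and 4.6 CPM in pot1b mock.

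In the AT4G34 array, SAUR1 (AT4G34770) was at 4.2, 5.37 and 3.8 CPM in WT mock and at 1.97, 2.34 and 1.88 CPM in pot1b mock. All pot1b libraries were lower than all WT libraries, with a log2 difference of -1.08 (SE 0.20, adjusted p = 0.000558). SAUR50 (AT4G34760), known from light-driven opening of cotyledons, was at 4.24, 3.16 and 3.99 CPM in WT mock and at 1.82, 2.11 and 2.02 CPM in pot1b mock. Its pot1b libraries lay close together and below all WT libraries (log2 -0.98, SE 0.20, adjusted p = 0.00148). The low members SAUR3 and SAUR5 gave -0.05 and -0.33 and were not called.

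The AT1G29 array holds the SAUR63 subfamily, which promotes elongation of hypocotyls and stamen filaments. SAUR66 (AT1G29500) was at 3.65, 4.0 and 3.42 CPM in WT mock and at 1.92, 2.03 and 2.67 CPM in pot1b mock, without overlap (log2 -0.74, SE 0.19, adjusted p = 0.0113). SAUR64 (AT1G29450) was at 2.06, 2.21 and 2.28 CPM against 1.23, 1.25 and 1.37 CPM (log2 -0.76, SE 0.21, adjusted p = 0.0191). Both groups of SAUR64 were tight and far apart. SAUR62, SAUR63, SAUR65 and SAUR68 of this array were not called, and the smallest difference was -0.04, in SAUR63. In the AT3G03 array, whose SAUR26 subfamily is known from growth in warmth, SAUR29 (AT3G03820) was at 1.19, 1.05 and 1.43 CPM in WT mock and at 0.64, 0.312 and 0.506 CPM in pot1b mock. Its groups did not overlap either (log2 -1.29, SE 0.35, adjusted p = 0.0145). SAUR26 and SAUR27 gave -0.95 and -1.25 without a call (adjusted p = 0.0765 and 0.118).

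Of the 2 members that rose, SAUR59 (AT3G60690) was the most abundant SAUR. It was at 20.2, 18.2 and 15.9 CPM in WT mock and at 26.0, 26.0 and 24.0 CPM in pot1b mock (log2 0.48, SE 0.11, adjusted p = 0.00552). Every pot1b library lay above every WT library. SAUR6 (AT2G21210) was at 2.1, 1.9 and 2.42 CPM in WT mock and at 3.4, 3.36 and 3.11 CPM in pot1b mock (log2 0.60, SE 0.19, adjusted p = 0.0347), and it shares bases with SAUR7 on the same strand, which was not called (log2 -0.91, adjusted p = 0.138). Groups did not overlap in 13 tested members that were lower and 4 that were higher, where 16.9% and 17.7% of all tested genes stood apart in these directions.

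The calls for SAUR1, SAUR22, SAUR23 and SAUR50 were kept under every alternative, including each library left out (highest adjusted p 0.00805, 0.00327, 0.05 after rounding and 0.0177). That of SAUR66 was lost without pot1b mock replicate 1 (highest adjusted p 0.0823), that of SAUR29 without WT mock replicate 3 or pot1b mock replicate 2 (0.0771), and that of SAUR64 without WT mock replicate 3 or pot1b mock replicate 1 or 2 (0.0832) and in DESeq2 (0.0841). That of SAUR59 was lost without WT mock replicate 3 (0.0503), and that of SAUR6 without any of 5 libraries, WT mock replicates 1 and 2 and the 3 of pot1b mock (0.135), without the filter and in DESeq2 (0.12). Without WT Zeocin replicate 1, which enters this comparison through the shared estimate of spread, 11 members were called lower. Calls over all tested genes then numbered 3736, against 2562 in the main fit. Without both pot1b replicate 3 libraries 5 members were called lower and 1 higher, and 1727 of all tested genes were called.

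Organ markers also differed in this comparison. The summed root markers were at 394 to 414 CPM in WT mock and at 671 to 710 CPM in pot1b mock, nearly all of it the root gene PYK10, and 2 of 6 tested (PYK10, log2 0.80, and NRT2.1, log2 1.11) were called higher. PLT1 and PLT2, which mark the root meristem, did not pass the filter and were at 0 in 1 and 2 libraries. The summed shoot markers were at 7608 to 7943 CPM in WT mock and at 9060 to 10358 CPM in pot1b mock, and 2 of 7 tested, the Rubisco genes RBCS1A (log2 0.60) and RBCS3B (log2 0.38), were called higher. GL1, a trichome gene, was at 0 in 2 libraries. The seed storage genes CRA1 and CRC summed to at most 1.1 CPM in any library. The part of organ make-up in the SAUR differences was not tested.

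**Figure D2:**
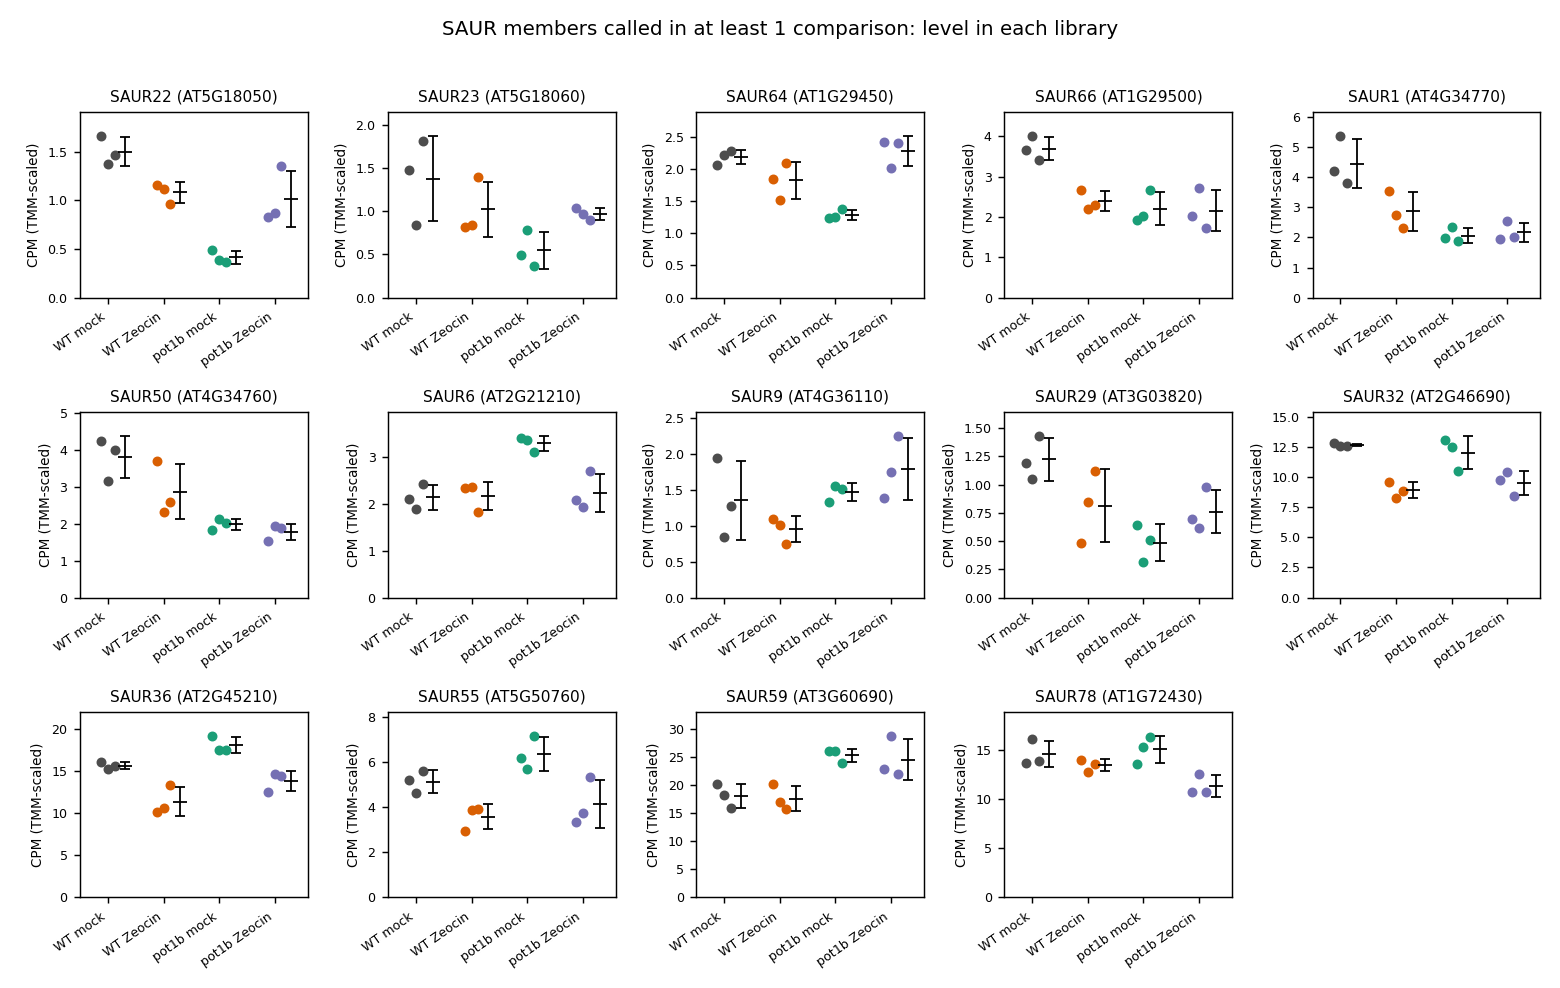
CPM of each SAUR called in at least 1 comparison, in each library of the 4 groups (dots, replicates 1 to 3 from left to right), with the group mean and SD as bars and axes from 0. SAUR22, SAUR1 and SAUR50 show the pot1b mock libraries below the WT mock libraries (SAUR22 0.361 to 0.493 against 1.37 to 1.66 CPM), and SAUR59 shows the reverse.

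The second comparison, Zeocin against mock in WT, asks how SAUR transcripts differ in WT seedlings after Zeocin treatment. SAUR32 and SAUR36 fell and no member rose, whereas over all tested genes 5.99% were called, 3.34% higher and 2.65% lower. A count of 2 of 35 is too small to be set apart from that share. At an unadjusted p under 0.05 edgeR marked 9 members, of which 1 was higher (SAUR72, log2 0.50), and 3480 of all 19596 tested genes in either direction. Neither DESeq2 nor limma-voom called any member higher. By group means, 38 of all 45 loci (84.4%) were lower after Zeocin, 29 of 31 in arrays and 9 of 14 that stand alone, where 47.1% of all features were lower. The median log2 change of the 35 tested members was -0.35, and that of all tested genes -0.00 (to 2 decimals).

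SAUR32 (AT2G46690) was at 12.8, 12.6 and 12.6 CPM in WT mock and at 9.58, 8.26 and 8.83 CPM in WT Zeocin. The mock libraries were nearly equal and all Zeocin libraries lay below them. The log2 change was -0.52 (SE 0.11, adjusted p = 0.00469), and the call was kept under every alternative (highest adjusted p 0.0332). SAUR36 (AT2G45210) was at 16.1, 15.3 and 15.7 CPM in WT mock and at 10.2, 10.6 and 13.4 CPM in WT Zeocin (log2 -0.46, SE 0.11, adjusted p = 0.0101). Its Zeocin replicate 3 lay nearer to the mock level than the others, and the call was lost without WT mock replicate 1 or WT Zeocin replicate 2 (highest adjusted p 0.061).

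Several array members lay just short of the threshold. SAUR66 was at 2.67, 2.19 and 2.3 CPM in WT Zeocin (log2 -0.62, adjusted p = 0.0503) and SAUR1 at 3.56, 2.75 and 2.3 CPM (log2 -0.61, adjusted p = 0.0526), in both genes all below the WT mock libraries given above. Among genes that stand alone, SAUR76, known from root and leaf growth, gave -1.14 (adjusted p = 0.0696) and SAUR55 gave -0.53 (adjusted p = 0.0751). Groups did not overlap in 8 members that were lower and 0 that were higher, against 11.1% and 10.9% of all tested genes. Members called lower numbered 5 without WT Zeocin replicate 1, 4 without pot1b Zeocin replicate 3 and 1 without WT mock replicate 1. Of all tested genes 1498, 1161 and 707 were called in these settings, against 1174 in the main fit. The gene EXPA18, a root hair marker, fell (log2 -1.12), and the other 5 tested root markers and the 7 tested shoot markers were not called.

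The third comparison, Zeocin against mock in pot1b, shares no library with the second, but it shares the pot1b mock libraries with the first. SAUR22 and SAUR64 rose and SAUR36, SAUR55 and SAUR78 fell, whereas 6.7% of all tested genes were called, 3.7% higher and 3% lower. Counts of 2 and 3 members of 35 are too small to be set apart from these shares. By group means 22 of 45 loci were lower after Zeocin, but the sets differed, with 12 of 31 in arrays and 10 of 14 that stand alone (46.9% of all features).

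SAUR22 was at 0.831, 0.875 and 1.35 CPM in pot1b Zeocin, all above the pot1b mock libraries at 0.361 to 0.493 CPM (log2 1.25, SE 0.35, adjusted p = 0.029). SAUR64 was at 2.42, 2.01 and 2.4 CPM against 1.23, 1.25 and 1.37 CPM in pot1b mock (log2 0.84, SE 0.22, adjusted p = 0.0206). In both genes the groups were apart, and in SAUR64 the level after Zeocin was within the range of 2.01 to 2.42 CPM that also holds the WT mock libraries. SAUR36 fell from 19.2, 17.6 and 17.5 CPM to 12.5, 14.7 and 14.4 CPM (log2 -0.39, SE 0.11, adjusted p = 0.0322). SAUR55 (AT5G50760) fell from 6.21, 5.7 and 7.16 CPM to 3.33, 3.76 and 5.33 CPM (log2 -0.62, SE 0.17, adjusted p = 0.0326). SAUR78 (AT1G72430) fell from 13.6, 15.3 and 16.3 CPM to 10.7, 12.6 and 10.7 CPM (log2 -0.41, SE 0.11, adjusted p = 0.0221). All Zeocin libraries of these 3 genes lay below all mock libraries, although in SAUR55 Zeocin replicate 3 came close. SAUR32, which fell in WT, gave -0.34 here (adjusted p = 0.0847).

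These 5 calls were less firm than those of SAUR1, SAUR22, SAUR23 and SAUR50 between the genotypes under mock treatment. None of the 5 was kept under every alternative, which also held for the mock calls of SAUR6, SAUR29, SAUR59, SAUR64 and SAUR66. DESeq2 kept 0 of the 2 higher and 1 of the 3 lower calls. With replicate 1 or 2 of pot1b mock or replicate 3 of pot1b Zeocin left out, 0 members were called higher, and with replicate 3 of pot1b mock or replicate 1 of pot1b Zeocin left out, 1. Those called lower numbered 0 without pot1b Zeocin replicate 1, and 1 without pot1b Zeocin replicate 3 or any pot1b mock replicate. Without pot1b mock replicate 3 that 1 was SAUR32, and the calls of SAUR36, SAUR55 and SAUR78 were all lost. Leaving out both pot1b replicate 3 libraries left 0 higher and 1 lower, and 742 of all tested genes were called, against 1313 in the main fit. Groups did not overlap in 5 members that were higher and 7 that were lower, against 12.6% and 12.7% of all tested genes. RBCS1A and RBCS3B fell by 0.35 and 0.30 on the log2 scale, and the part of shoot content was not tested.

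The fourth comparison set pot1b against WT under Zeocin. SAUR59 and SAUR9 were higher and no member was called lower, whereas 11.1% of all tested genes were called, 6.55% higher and 4.51% lower. At an unadjusted p under 0.05 edgeR marked 7 of the 35 members in either direction, beside 4812 of all 19596 tested genes. Of the 7, 4 were lower (SAUR7, SAUR50, SAUR72 and SAUR78), and DESeq2 and limma-voom called 0 lower. By group means 20 of 45 loci were lower, 16 of 31 in arrays and 4 of 14 that stand alone (46.6% of all features).

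SAUR59 was at 20.1, 16.9 and 15.7 CPM in WT Zeocin and at 22.8, 28.7 and 22.0 CPM in pot1b Zeocin, all pot1b libraries being higher (log2 0.48, SE 0.11, adjusted p = 0.00843). The call was lost without pot1b Zeocin replicate 2 (adjusted p = 0.0697). SAUR9 (AT4G36110), whose protein is known to bind PP2C.D phosphatases, was at 1.1, 1.01 and 0.749 CPM in WT Zeocin and at 1.39, 1.75 and 2.25 CPM in pot1b Zeocin (log2 0.92, SE 0.30, adjusted p = 0.0486). This call was lost in DESeq2 (adjusted p = 0.1) and limma-voom (adjusted p = 0.073) and without 8 of the 12 libraries, the exceptions being WT mock replicates 1 and 2, WT Zeocin replicate 1 and pot1b Zeocin replicate 1. SAUR50 lay at 3.7, 2.3 and 2.57 CPM in WT Zeocin and at 1.52, 1.93 and 1.88 CPM in pot1b Zeocin, again without overlap (log2 -0.67, adjusted p = 0.0507). It was called lower without WT Zeocin replicate 2 (adjusted p = 0.0338) or replicate 3 (adjusted p = 0.0487). Members called higher numbered 0 without pot1b Zeocin replicate 2, and 1 without WT mock replicate 3, WT Zeocin replicate 2, pot1b Zeocin replicate 3 or any pot1b mock replicate. Without both pot1b replicate 3 libraries 1 was called higher. Groups stood apart in 2 members that were higher and 4 that were lower, against 14% and 12% of all tested genes. Among root markers PYK10 (log2 0.83) and NRT2.1 (log2 1.13) were again called higher in pot1b.

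**Figure D3:**
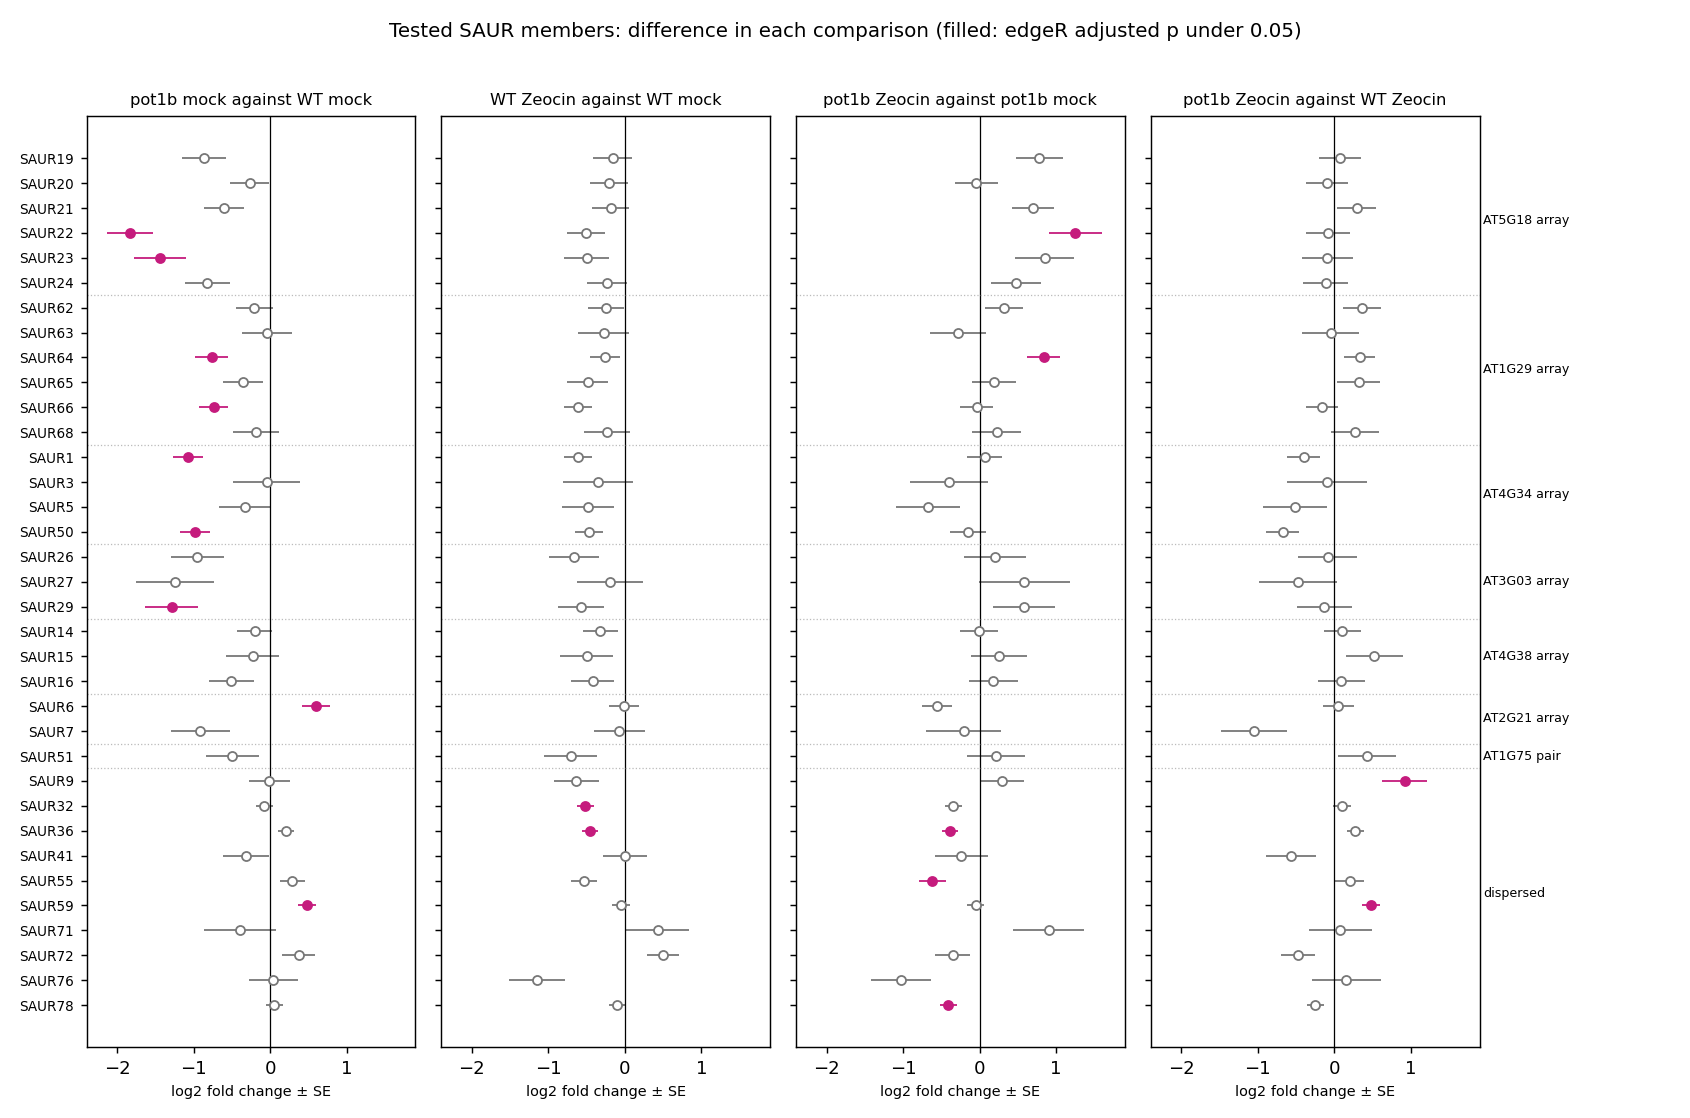
Log2 fold change with SE (bars) of the 35 tested SAUR members in 4 comparisons, ordered by array, with filled symbols where edgeR's adjusted p was under 0.05. In pot1b against WT under mock the filled symbols on the left (7 members, -0.74 to -1.83) all belong to arrays, while the 2 filled on the right are SAUR6 and SAUR59. Of the 35 tested members only 10 stand alone.

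Whether Zeocin acted differently in the genotypes was tested as the interaction, that is, how far the log2 change after Zeocin in pot1b exceeded the one in WT. No SAUR member passed the threshold in edgeR, whereas 0.75% of all tested genes did. At an unadjusted p under 0.05 there were 9 of the 35 members in edgeR, where 2107 of all 19596 tested genes were marked. There were 4 in DESeq2 and 10 in limma-voom, for which no count over all genes is given here. These tools also called 0, DESeq2 giving no adjusted p for SAUR22. Of the 9 in edgeR SAUR22 came nearest, with a log2 difference of 1.75 (SE 0.43, adjusted p = 0.0591). It was the only member whose WT Zeocin libraries (1.16, 1.12 and 0.963 CPM) all lay below WT mock while its pot1b Zeocin libraries all lay above pot1b mock. It was called without WT Zeocin replicate 1 (adjusted p = 0.0324), where 437 of all tested genes were called, against 147 in the main fit. Its adjusted p was 0.314 without both pot1b replicate 3 libraries. SAUR64 followed with 1.09 (SE 0.30, adjusted p = 0.0933). The others were SAUR23 (1.35), SAUR29 (1.16), SAUR19 (0.94), SAUR9 (0.93), SAUR21 (0.89), SAUR1 (0.68) and, in the other direction, SAUR72 (-0.85), a relative of the cell expansion gene SAUR41. These comparisons share libraries, since WT mock enters both the Zeocin effect in WT and the mock comparison of genotypes. The pot1b mock libraries likewise enter that mock comparison, the Zeocin effect in pot1b and the interaction. Low values of SAUR22 and SAUR64 in these libraries thus bear on the fall, the rise and the positive interaction together. The values are therefore set side by side and not counted as separate evidence.

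The arrays differed in how their summed level stood in the 4 groups, which is given as a description. The AT5G18 array was at 8.67 ± 1.24 CPM in WT mock, 7.23 ± 0.321 in WT Zeocin, 4.8 ± 0.265 in pot1b mock and 7.3 ± 0.529 in pot1b Zeocin (mean ± SD, n = 3). Its pot1b mock libraries were below those of the other 3 groups, which lay near each other. The AT4G34 array was at 10.5 ± 0.777, 7.33 ± 0.839, 6.17 ± 1.02 and 5.3 ± 0.52 CPM in the same order, so that WT mock was above the other 3 groups and Zeocin did not bring pot1b nearer to it. The AT1G29 array was at 12.2 ± 0.681, 9.2 ± 1.22, 9.13 ± 1.4 and 10.7 ± 0.551 CPM, and the AT3G03 array at 3.73 ± 0.115, 2.53 ± 0.404, 1.7 ± 0.3 and 2.3 ± 0.265 CPM. In both, WT mock was highest, and pot1b mock and WT Zeocin overlapped in the AT1G29 array. The 14 genes that stand alone were at 73.3 ± 2.07, 61.8 ± 2.42, 84.4 ± 1.2 and 70.3 ± 5.91 CPM, with pot1b mock highest. SAUR59, at 18.1 ± 2.19 CPM in WT mock and 25.3 ± 1.14 in pot1b mock, makes up most of that difference and was the only one of them called there, and the median log2 difference of the 10 tested was 0.05. The AT2G21 array was also highest in pot1b mock, at 3.43 ± 0.416, 3.3 ± 0.2, 4.0 ± 0.265 and 2.97 ± 0.737 CPM in the same order, with overlap between groups. The AT4G38 array was at 7.8 ± 1.28, 5.8 ± 1.76, 6.27 ± 1.1 and 6.47 ± 1.27 CPM and the AT1G75 pair at 1.5 ± 0.346, 0.9 ± 0.361, 1.07 ± 0.0577 and 1.27 ± 0.289 CPM. SAUR14 (AT4G38840), the most abundant array member, was at 4.65 ± 0.609, 3.63 ± 1.32, 4.03 ± 0.55 and 3.93 ± 1.14 CPM (mean ± SD, n = 3), and its groups overlapped. SAUR51 (AT1G75580) was at 1.12 ± 0.326, 0.66 ± 0.35, 0.801 ± 0.182 and 0.922 ± 0.0356 CPM, also with overlap, and neither was called in any comparison. WT mock was the group with the highest mean for 19 of 31 array genes and for 1 of 14 others, and pot1b mock for 5 and 7. Over all 45 loci the sum was 121 ± 2.41, 98.1 ± 3.83, 118 ± 2.72 and 106 ± 4.36 CPM, so that WT mock and pot1b mock overlapped in the total.

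**Figure D4:**
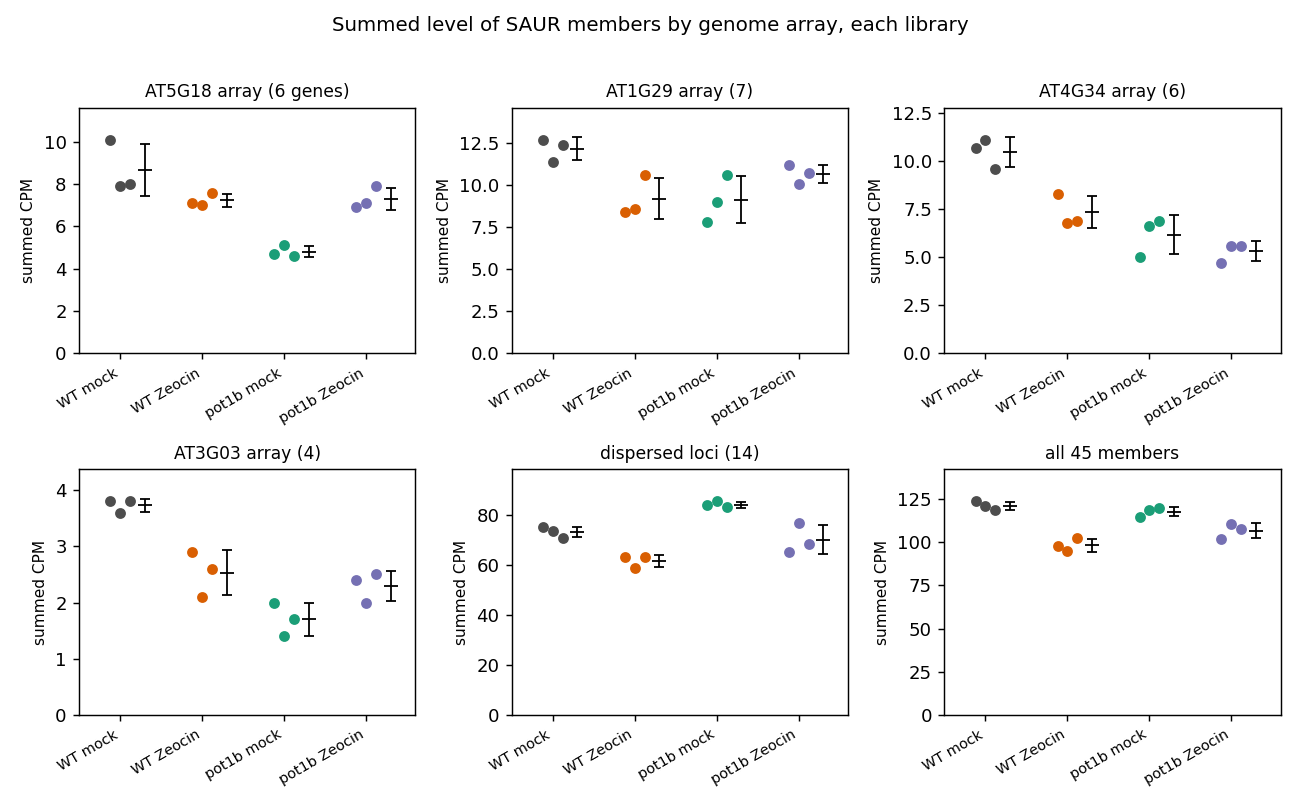
Summed CPM of the SAUR members of 4 arrays, of the 14 genes that stand alone and of all 45, in each library (dots) with mean and SD (bars), axes from 0. The AT5G18 array is lowest in pot1b mock (4.6 to 5.1 CPM), whereas the genes that stand alone are highest there (83.2 to 85.6 CPM).

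The other 35 SAUR loci of the count tables, of which 9 passed the filter, gave a comparison within the family. Under mock treatment 2 of the 9 were higher in pot1b and 3 lower, beside 7.25% and 5.83% of all tested genes. SAUR30 was at 2.5 CPM in WT mock and 4.74 in pot1b mock (log2 0.92, SE 0.20, adjusted p = 0.00321), and SAUR79 at 1.8 and 3.44 CPM (log2 0.86, SE 0.22, adjusted p = 0.0096). SAUR44 fell from 2.09 to 0.884 CPM (log2 -1.26, SE 0.28, adjusted p = 0.00367), and SAUR13, a locus of the AT4G38 run, from 3.8 to 2.03 CPM (log2 -0.91, SE 0.18, adjusted p = 0.00157). AT5G01830, which carries a SAUR symbol but is annotated as an ARM repeat protein, fell by 0.52. Under Zeocin SAUR79 (log2 1.10) and SAUR30 (log2 0.67) were again higher in pot1b.

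Genes that make, move, sense and answer auxin were read beside the SAURs, in lists chosen with earlier results of these data known. Shares of all tested genes are therefore given for scale and not as a test of the lists. Of 13 tested early auxin genes of the Aux/IAA repressor and GH3 conjugase families, 10 fell in pot1b under mock and none rose (5.83% and 7.25% of all tested genes), with a median log2 difference of -0.63. IAA29 fell by 1.03, GH3.3 by 0.68 and GH3.2 by 0.66. In WT 6 fell after Zeocin (2.65% of all tested genes), IAA1 by 0.59, IAA2 by 0.55 and GH3.3 by 0.54. In pot1b none fell after Zeocin and 3 rose (3.7% of all tested genes), IAA5 by 2.76, IAA3 by 0.53 and IAA29 from a mean of 1.54 to 5.82 CPM. Between genotypes under Zeocin, IAA5 (1.41) and IAA17 (0.49) were higher in pot1b and 3 were lower, GH3.5 by the most (-0.41). The interaction was called in 6 of the 13, all positive, where 0.378% of all tested genes were called in that direction, the largest being IAA5 (2.46), IAA29 (1.32) and IAA3 (0.72). Of 9 auxin transport genes 5 fell in pot1b under mock (5.83% of all tested genes), among them the influx carrier AUX1 (log2 -0.65), the efflux carrier PIN3 (-0.59) and ABCB19 (-0.50), and 4 were lower under Zeocin (4.51% of all tested genes), AUX1 by 0.49, ABCB19 by 0.42 and PIN3 by 0.40 on the log2 scale among them. In WT after Zeocin ABCB1 rose (0.47) and PIN3 fell (-0.29). Of 6 auxin receptors, AFB1 was lower in pot1b under mock (-0.71) and Zeocin (-0.54), and AFB2 was higher under mock (0.29). No auxin synthesis gene of 7 tested was called under mock in edgeR. At an unadjusted p under 0.05 edgeR marked 2 of them, beside 4980 of all 19596 tested genes. YUC8 was lower in pot1b under Zeocin (-0.48). Of 5 activating ARFs, ARF5 rose in WT after Zeocin (0.49), where 3.34% of all tested genes were called higher.

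Transcripts of the PP2C.D phosphatases and of the proton pumps did not share 1 direction. Of 9 PP2C.D phosphatases, AT5G66080 (log2 -1.10) and AT3G17090 (-0.41) fell in pot1b under mock, while AT3G55050 (0.42) and 1 other rose. Over all tested genes 5.83% were called lower and 7.25% higher there. Corresponding shares between genotypes under Zeocin were 4.51% and 6.55%, and these stand beside the pump and growth factor counts too. Under Zeocin AT5G66080 (-0.70), AT4G38520 (-0.38) and AT4G33920 (0.29) differed between genotypes. Of 4 proton pump genes, AHA2 was higher (0.37) and AHA1 lower (-0.21) in pot1b under mock. AHA2 fell by 0.46 in pot1b after Zeocin, and AHA1 was lower in pot1b than in WT under Zeocin (-0.29). Among 10 tested growth transcription factors PIF4 (-0.61) and HBI1 (-0.39) were lower in pot1b under mock. PIF3 and PIF1 fell by 0.53 and 0.52 in pot1b after Zeocin, where 3% of all tested genes were called lower. PIF1 (-0.50), PIF3 (-0.42) and PIF5 (-0.41) were lower in pot1b than in WT under Zeocin.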

How the data were processed

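RNA of 12 seedling libraries was deposited by the authors as raw read counts per gene, whole numbers with 9607269 to 24587168 counts per library. Per the submitters' processing notes the reads were trimmed with Trim Galore, aligned with HISAT2 to TAIR10 and counted with featureCounts, and limma is named too. Versions, the strand setting and the treatment of reads that fit several places are not given in the sources used here.

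Groups were taken from the labels. The main test was that of edgeR 4.0.16 under R 4.3.3. Its filterByExpr with a minimum count of 10 kept 19596 genes, libraries were scaled by TMM, and 1 robust quasi-likelihood model of the 4 groups was fitted to all 12 libraries (8 residual degrees of freedom, coefficient of variation between replicates 11%), with 5 contrasts. The script was tested on simulated data. Alternatives were RLE scaling, no filter, DESeq2 1.42.0, limma-voom (limma 3.58.1), nuclear genes only, the groups of a contrast alone, a replicate block, each library left out and, added after seeing the data, both pot1b replicate 3 libraries left out. With 1 library left out, a group of 2 is assumed to vary like the others. Limits from counts cover counting error only.

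Named were the SAUR members called in any contrast, the member of each array with the highest mean CPM, those that failed the filter, at most 3 called genes of each auxin or growth list per contrast, and called members of the rest of the family. Others, such as members just short of the threshold or highest per kilobase in an array, were chosen after their values were seen. Members and lists were chosen with earlier results of these data known. Symbols, lengths and sequences came from RefSeq TAIR10.1 by locus identifier, whose build name differs from that of the counts. Coding sequences were aligned with Biopython 1.88 and MAFFT 7.526.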

Additional observations from a re-analysis of the deposited data

How the results depend on the processing

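Of 1682 alternative values of the named SAUR members, 1597 kept direction and side of the threshold, 63 were no longer past it, 22 were newly past it and 0 reversed. Of 18 calls, 5 were kept under every alternative. Members called lower in WT after Zeocin (2) numbered 1 with the groups of the contrast alone and 1 to 5 with a library left out. In pot1b after Zeocin, 2 higher became 0 with DESeq2, 0 without both pot1b replicate 3 libraries and 0 to 2 with a library left out, and 3 lower became 1, 1 and 0 to 4. In pot1b against WT under mock, 2 higher became 1 without the filter, with DESeq2 and without both pot1b replicate 3 libraries, and 1 to 2 with a library left out. There 7 lower became 11 with the groups of the contrast alone and 5 to 11 with a library left out. Of all tested genes 3981 were called with the groups alone, against 2562 in the main fit. Under Zeocin, 2 higher became 1 with DESeq2, limma-voom, the groups alone or without both pot1b replicate 3 libraries, and 0 to 2 with a library left out. There 0 lower became 1 with RLE scaling or nuclear genes only, and 0 to 1 with a library left out. The interaction, with 0 higher, gave 0 to 1 with a library left out. Apart from the settings built from fewer libraries, the cause was not tested.

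With the replicate number as a block, 6 members were called lower in WT after Zeocin, 9 lower in pot1b under mock, 1 lower in pot1b under Zeocin and 1 higher (SAUR22, adjusted p = 0.0426) in the interaction. Calls over all tested genes rose too, from 1174 to 1691, 2562 to 3273, 2168 to 2862 and 147 to 379 in the same order. Deviations of same-numbered libraries correlated at 0.08 to 0.295 (mean 0.187) for number 1, -0.022 to 0.141 (mean 0.05) for number 2 and 0.29 to 0.416 (mean 0.353) for number 3, against a mean of -0.099 between numbers, and 9 of 12 libraries correlated best with their own number. This is a hint from the data and not from the design: not every pair was over 0.1 and the labels name no shared batch, so the pairing is not established and the model without the block was kept. The median log2 difference of the tested members in pot1b against WT under Zeocin (0.06) became -0.04 without WT Zeocin replicate 1 and -0.02 without replicate 2. Depth limits the lower members, such as SAUR22 with 5 counts in each of 2 pot1b mock libraries.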
